A study of Rattus norvegicus with 12 samples.

Results

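Mitosis and spindle genes, which carry out chromosome condensation, spindle assembly, chromosome segregation and cytokinesis, were followed in rat liver after partial hepatectomy (PH). A list of 58 gene names was matched by symbol to a table of RPKM values (read numbers corrected for transcript length and library size), which lists 14692 genes. Of these names 44 were matched and are described here. The other 14 names are not analysed here: MKI67, NCAPG, NCAPH, NCAPD2, BIRC5, BUB1B, CENPE, CENPF, KIF11, KIF4A, KIF4, CKAP2, CKAP2L and ANLN. All 44 genes were kept whatever their level. Averaged over the 12 columns, 42 of them reached 1 RPKM, and MYBL2 and HMGB2 did not.

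Whole liver of male Sprague Dawley rats, 4 to 5 months old, was taken 0, 4, 12 or 24 h after PH, and PH was done 24 h after a first operation. All rats had an enterostomy catheter with a continuous duodenal infusion of saline. Control rats (title prefix Cont) had a sham biliary fistula. The other rats had a biliary fistula, an external drain of the bile duct that empties the bile acid pool, and in one of these groups sodium taurocholate, a bile acid, was infused into the duodenum. Sources differ on which prefix stands for which of these: GEO's descriptions give BA as the fistula without bile and BF as the fistula with bile acid infusion, whereas the paper uses the abbreviation BF for the fistula and adds BA for the infusion. CYP7A1, the rate-limiting enzyme of bile acid synthesis, was at 60.0 RPKM in the Control column at 0 h, at 54.9 RPKM in the BA column and at 386.9 RPKM in the BF column. CYP8B1, which makes cholic acid, was at 136.4, 110.2 and 1576 RPKM in the same columns. Bile acids that return to the liver are known to repress both genes, so the levels in the BF column at 0 h go with the paper's use of the prefix and against GEO's description of it. Because the sources conflict, the columns are named by their prefix throughout and no direction is drawn for the infusion.

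The authors averaged 2 runs into each of the 12 columns, the first from a single rat and the second from 3 rats whose RNA was combined. With 1 column for each prefix and time, no value has a spread over rats and no difference has a test. The read depth is unknown. Differences are given as log2 after adding 1 RPKM, which makes differences between low values smaller, and 2-fold means 1 on this scale. They are set beside the 8459 genes whose average over the columns reached 1 RPKM, called all genes here. In whole liver, more cells in mitosis and more RNA per cell cannot be told apart.

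Column sums lay between 727435 and 982826 RPKM, the highest being BA at 4 h, where ALB (albumin) took 30.9% of the column against 5.60% to 13.4% elsewhere. The hepatocyte markers found, 4 of 5 listed, summed to 71156 to 337301 RPKM. Leukocyte markers (4 of 5 found) summed to 25.9 to 40.8 RPKM, erythroid markers (3 of 5) to 1.19 to 2.64 RPKM, endothelial and stellate markers (3 of 5) to 10.2 to 23.0 RPKM and cholangiocyte markers (3 of 5) to 4.95 to 13.5 RPKM. Pancreatic acinar markers (5 of 5) summed to 122.3 RPKM in BF at 12 h and to 5.09 to 23.0 RPKM in the other columns. In that BF column CTRB1, a chymotrypsinogen, was at 84.7 RPKM.

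Most of these genes belong to the late cell cycle programme. They are silent in resting hepatocytes, which re-enter the cell cycle after PH, and are transcribed in G2 phase and mitosis. The MuvB complex reads a short promoter element, the cell cycle genes homology region (CHR), and acts there first with repressors and later with the activators MYBL2 and FOXM1. NF-Y binds CCAAT boxes, which often lie upstream of a CHR. Promoter windows from 250 bases before to 50 bases after each start, taken from RefSeq on the rat build GRCr8, were available for 37 of the 44 genes (38 windows, KIF2C having 2). No window was matched for FOXM1, UBE2C, AURKB, CDCA2, PBK, TPX2 and RACGAP1.

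A CHR, written as TTTGAA or TTCGAA on either strand, stood in 73.7% of the 38 windows and in 19.7% of all 33469 windows of this length. CCAAT on either strand stood in 65.8% against 37.5%, and the pair of motifs in 57.9% against 7.95%. The letters of the 2 motifs overlapped only in CDCA8 among these genes. These are matches of letters and do not show that a factor binds. The windows of 4 genes with a CHR are printed because these 4 had the largest 24 h over 0 h differences in the Control columns among the genes with both a window and a CHR. They are TOP2A (chr10:84473044-84473343), SPC25 (chr3:74396669-74396968), NUF2 (chr13:84255549-84255848) and HMMR (chr10:25665166-25665465), all on the minus strand of GRCr8 and printed 5′ to 3′ along the gene. Capitals mark CHR letters (TTTGAA or TTCGAA, or TTCAAA on the other strand) and CCAAT letters (ATTGG on the other strand).
TOP2A: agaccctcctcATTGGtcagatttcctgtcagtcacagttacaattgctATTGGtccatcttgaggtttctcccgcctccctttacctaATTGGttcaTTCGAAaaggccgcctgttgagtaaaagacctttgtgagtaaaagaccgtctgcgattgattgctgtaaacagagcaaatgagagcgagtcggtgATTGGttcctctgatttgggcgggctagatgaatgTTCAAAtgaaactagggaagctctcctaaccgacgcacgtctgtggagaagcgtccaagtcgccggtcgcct
SPC25: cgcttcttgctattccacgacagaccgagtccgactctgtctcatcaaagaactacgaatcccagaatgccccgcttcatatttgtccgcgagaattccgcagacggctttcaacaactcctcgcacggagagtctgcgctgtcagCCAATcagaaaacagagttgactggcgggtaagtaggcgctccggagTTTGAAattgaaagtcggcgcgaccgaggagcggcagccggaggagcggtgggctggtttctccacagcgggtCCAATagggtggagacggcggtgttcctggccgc
NUF2: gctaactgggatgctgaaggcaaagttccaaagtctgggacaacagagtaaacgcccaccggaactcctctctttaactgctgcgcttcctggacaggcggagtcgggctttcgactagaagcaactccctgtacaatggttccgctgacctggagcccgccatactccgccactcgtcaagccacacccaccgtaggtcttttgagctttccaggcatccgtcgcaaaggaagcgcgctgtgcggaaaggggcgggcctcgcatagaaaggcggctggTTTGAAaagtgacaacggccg
HMMR: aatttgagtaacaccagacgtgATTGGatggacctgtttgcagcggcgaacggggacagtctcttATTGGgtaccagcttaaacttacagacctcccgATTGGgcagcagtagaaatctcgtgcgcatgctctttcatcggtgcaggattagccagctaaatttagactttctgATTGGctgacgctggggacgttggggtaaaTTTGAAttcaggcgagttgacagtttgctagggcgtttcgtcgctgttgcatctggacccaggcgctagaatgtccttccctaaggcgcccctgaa
TOP2A held 2 CHR and 4 CCAAT matches, and HMMR 1 CHR and 4 CCAAT. SPC25 held 1 CHR and 2 CCAAT, and the CHR lay before the start. The single CHR of NUF2 lay after its start and no CCAAT was found in that window.

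The mitosis genes were near the floor of the table until 12 h and were high at 24 h in all 3 prefixes. The median gene of the 44 was at 0.445, 0.315, 0.28 and 30.9 RPKM at 0, 4, 12 and 24 h in the Control columns. It was at 1.19, 0.245, 0.255 and 22.2 RPKM in the BA columns and at 0.31, 0.20, 0.685 and 22.0 RPKM in the BF columns. At 24 h every one of the 44 genes was above 1 RPKM in each column, whereas at 0 h 9 genes reached 1 RPKM in Control, 26 in BA and 8 in BF.

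**Figure D1:**
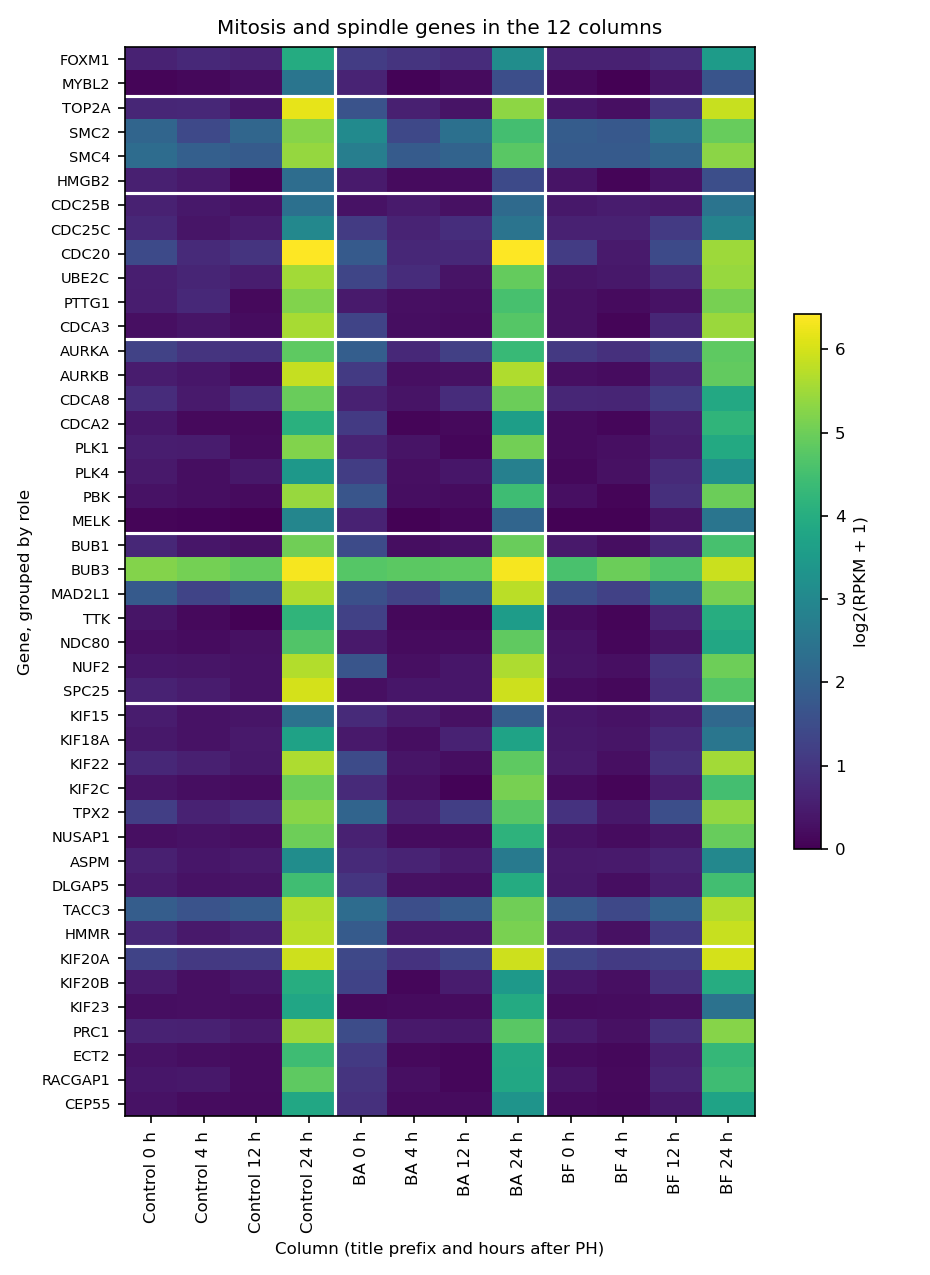
Heatmap of the 44 mitosis and spindle genes (rows, grouped by role with white lines) in the 12 columns of the table (title prefix and hours after PH), coloured by log2(RPKM + 1). The 24 h columns stand apart for nearly every gene, BUB3 being bright in all 12, and the BA column at 0 h is lighter than the other columns before 24 h.

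Against 0 h, all 44 genes were at least 2-fold higher at 24 h in Control, where 8.29% of all genes were. In BA 42 of 44 passed 2-fold (3.83% of all genes), and the other two, MYBL2 and HMGB2, had log2 differences of 0.92 and 0.96. In BF 44 of 44 passed (9.27%). Median log2 differences were 4.04 in Control, 2.92 in BA and 3.85 in BF, beside 0.21, 0.15 and 0.28 for all genes. No gene of the list was 2-fold higher than at 0 h at 4 h (4.01%, 4.61% and 5.13% of all genes in Control, BA and BF) or at 12 h (3.96%, 1.29% and 2.46%). With 1 RPKM added, a gene under 1 RPKM at the later time cannot be called 2-fold higher. At 4 h 38, 39 and 38 of the 44 genes were under it in Control, BA and BF, and at 12 h 38, 36 and 32. Taken against 12 h, 44 of 44 genes were 2-fold higher at 24 h in each prefix (11.8%, 7.52% and 7.28% of all genes), with medians of 4.15, 3.72 and 3.57. For every gene that passed 2-fold against 0 h, the first time past it was thus 24 h.

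The transcription regulators come first. FOXM1, a forkhead activator of G2 and mitosis genes, was at 0.54, 0.67, 0.56 and 14.4 RPKM at 0, 4, 12 and 24 h in Control, at 1.22, 0.96, 0.76 and 7.93 RPKM in BA and at 0.50, 0.51, 0.72 and 10.5 RPKM in BF. MYBL2, the Myb protein that joins MuvB, was at 0.07, 0.10, 0.17 and 4.62 RPKM at 0, 4, 12 and 24 h in Control, at 0.55, 0.05, 0.13 and 1.93 RPKM in BA and at 0.11, 0.01, 0.28 and 2.16 RPKM in BF. FOXM1 was far higher at 24 h than at any earlier time in each prefix, and MYBL2 was highest in Control at 24 h.

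Chromosome structure was represented by TOP2A, SMC2, SMC4 and HMGB2. TOP2A, the topoisomerase that disentangles sister chromatids, was at 0.62, 0.65, 0.30 and 71.7 RPKM at 0, 4, 12 and 24 h in Control, at 2.11, 0.49, 0.26 and 39.1 RPKM in BA and at 0.32, 0.20, 0.94 and 57.9 RPKM in BF. SMC4, a core subunit of condensin, was at 3.81, 2.82, 2.62 and 41.4 RPKM at 0, 4, 12 and 24 h in Control, at 5.73, 2.56, 3.12 and 26.4 RPKM in BA and at 2.50, 2.53, 3.24 and 38.4 RPKM in BF. SMC2, its partner in condensin, was at 3.29, 1.67, 3.38 and 37.4 RPKM at 0, 4, 12 and 24 h in Control, at 7.38, 1.61, 4.17 and 21.8 RPKM in BA and at 2.64, 2.39, 4.55 and 29.4 RPKM in BF. All 3 had the order Control, BF, BA at 24 h, and the condensin genes were already detectable at 2 RPKM or more in most earlier columns. HMGB2, a chromatin protein with related copies in the genome, was at 0.48, 0.35, 0.06 and 3.94 RPKM at 0, 4, 12 and 24 h in Control, at 0.39, 0.14, 0.16 and 1.70 RPKM in BA and at 0.27, 0.06, 0.24 and 1.91 RPKM in BF. Whether reads of near-identical copies were split or lost was not tested, so the values of HMGB2 are uncertain.

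Of the genes of mitotic entry and exit, CDC20, the activator of the anaphase-promoting complex, was at 1.73, 0.69, 0.96 and 83.4 RPKM at 0, 4, 12 and 24 h in Control, at 2.55, 0.64, 0.66 and 84.8 RPKM in BA and at 1.21, 0.38, 1.71 and 43.6 RPKM in BF. CDCA3, which acts in the destruction of the mitotic brake WEE1, was at 0.19, 0.28, 0.15 and 47.1 RPKM at 0, 4, 12 and 24 h in Control, at 1.48, 0.18, 0.15 and 25.5 RPKM in BA and at 0.23, 0.06, 0.62 and 42.7 RPKM in BF. UBE2C, the ubiquitin-conjugating enzyme of the anaphase-promoting complex, was at 0.45, 0.59, 0.44 and 45.6 RPKM at 0, 4, 12 and 24 h in Control, at 1.55, 0.76, 0.26 and 28.8 RPKM in BA and at 0.29, 0.33, 0.69 and 42.5 RPKM in BF. CDC20 was lowest in BF at 24 h, while CDCA3 and UBE2C were lowest in BA. PTTG1 (securin), CDC25B and CDC25C lay between 3.67 and 36.1 RPKM at 24 h. The median 24 h over 0 h difference of these 6 genes was 4.83 in Control, 3.48 in BA and 4.57 in BF.

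Among the mitotic kinases and the passenger complex, AURKB, the kinase that corrects faulty attachments at the centromere, was at 0.40, 0.30, 0.16 and 56.6 RPKM at 0, 4, 12 and 24 h in Control, at 1.12, 0.20, 0.23 and 49.1 RPKM in BA and at 0.19, 0.15, 0.58 and 28.5 RPKM in BF. PBK, a mitotic serine/threonine kinase, was at 0.24, 0.18, 0.13 and 42.2 RPKM at 0, 4, 12 and 24 h in Control, at 2.24, 0.17, 0.15 and 20.6 RPKM in BA and at 0.20, 0.07, 0.83 and 30.5 RPKM in BF. PLK1, which drives mitotic entry and cytokinesis, was at 0.44, 0.40, 0.14 and 36.0 RPKM at 0, 4, 12 and 24 h in Control, at 0.57, 0.26, 0.08 and 32.2 RPKM in BA and at 0.14, 0.20, 0.41 and 13.9 RPKM in BF. AURKB and PLK1 were lowest in BF at 24 h and PBK in BA. CDCA8 (borealin), which holds AURKB at the centromere, was at 30.0 RPKM in Control, 30.4 in BA and 13.7 in BF at 24 h. The 24 h levels of AURKA, CDCA2, PLK4 and MELK ran from 3.29 to 27.6 RPKM.

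Next came 7 genes of the spindle checkpoint and kinetochore. BUB3, a checkpoint protein that binds phosphorylated kinetochores, was at 36.7, 33.0, 29.2 and 80.0 RPKM at 0, 4, 12 and 24 h in Control, at 25.4, 27.0, 27.4 and 79.5 RPKM in BA and at 22.8, 30.6, 24.5 and 58.7 RPKM in BF. It had the highest level of the list before 24 h, at 22.8 to 36.7 RPKM, and its 24 h over 0 h difference, 1.10 in Control, was the smallest there. SPC25, a subunit of the NDC80 complex that grips microtubules, was at 0.52, 0.41, 0.24 and 63.7 RPKM at 0, 4, 12 and 24 h in Control, at 0.20, 0.32, 0.31 and 60.1 RPKM in BA and at 0.15, 0.10, 0.76 and 25.0 RPKM in BF. NUF2, another subunit of that complex, was at 0.32, 0.29, 0.25 and 50.6 RPKM at 0, 4, 12 and 24 h in Control, at 2.24, 0.19, 0.30 and 48.3 RPKM in BA and at 0.26, 0.21, 0.89 and 31.3 RPKM in BF. SPC25, NUF2, NDC80, BUB1, BUB3 and MAD2L1 all had their lowest 24 h value in BF. TTK (MPS1), the kinase at the head of the same checkpoint, had its lowest in BA, at 10.6 RPKM beside 17.5 in Control and 15.0 in BF.

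Kinesins and spindle assembly factors made the largest role, with 10 genes. HMMR, which links microtubules to the spindle poles, was at 0.64, 0.36, 0.51 and 52.9 RPKM at 0, 4, 12 and 24 h in Control, at 2.62, 0.35, 0.36 and 33.8 RPKM in BA and at 0.46, 0.23, 1.14 and 58.4 RPKM in BF. TACC3, which stabilises the fibres of the spindle, was at 2.72, 2.11, 2.58 and 49.98 RPKM at 0, 4, 12 and 24 h in Control, at 3.82, 1.90, 2.55 and 31.5 RPKM in BA and at 2.43, 1.61, 2.99 and 50.7 RPKM in BF. KIF22, a chromokinesin that pushes chromosomes to the spindle equator, was at 0.65, 0.48, 0.34 and 48.7 RPKM at 0, 4, 12 and 24 h in Control, at 1.78, 0.28, 0.18 and 27.2 RPKM in BA and at 0.37, 0.19, 0.82 and 45.5 RPKM in BF. Each of these 3 genes was lowest in BA at 24 h, with Control and BF closer to each other than to BA. The median 24 h over 0 h difference of the 10 genes was 4.04 in Control, 3.11 in BA and 4.18 in BF.

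Cytokinesis genes closed the list. KIF20A, a kinesin of the central spindle, was at 1.46, 1.10, 1.13 and 59.8 RPKM at 0, 4, 12 and 24 h in Control, at 1.64, 0.93, 1.46 and 60.1 RPKM in BA and at 1.43, 1.13, 1.27 and 63.3 RPKM in BF. PRC1, which bundles the microtubules of the central spindle, was at 0.53, 0.50, 0.35 and 44.3 RPKM at 0, 4, 12 and 24 h in Control, at 1.81, 0.36, 0.33 and 26.3 RPKM in BA and at 0.37, 0.23, 0.81 and 37.2 RPKM in BF. RACGAP1, the GTPase-activating subunit of centralspindlin, was at 0.30, 0.33, 0.15 and 27.6 RPKM at 0, 4, 12 and 24 h in Control, at 0.96, 0.19, 0.09 and 13.5 RPKM in BA and at 0.26, 0.12, 0.56 and 20.6 RPKM in BF. KIF20A alone among the 44 genes had the order BF, BA, Control at 24 h, and its 3 values lay within 1.1-fold of each other. The plot of levels by time shows the distribution of all 44 genes in each column.

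**Figure D2:**
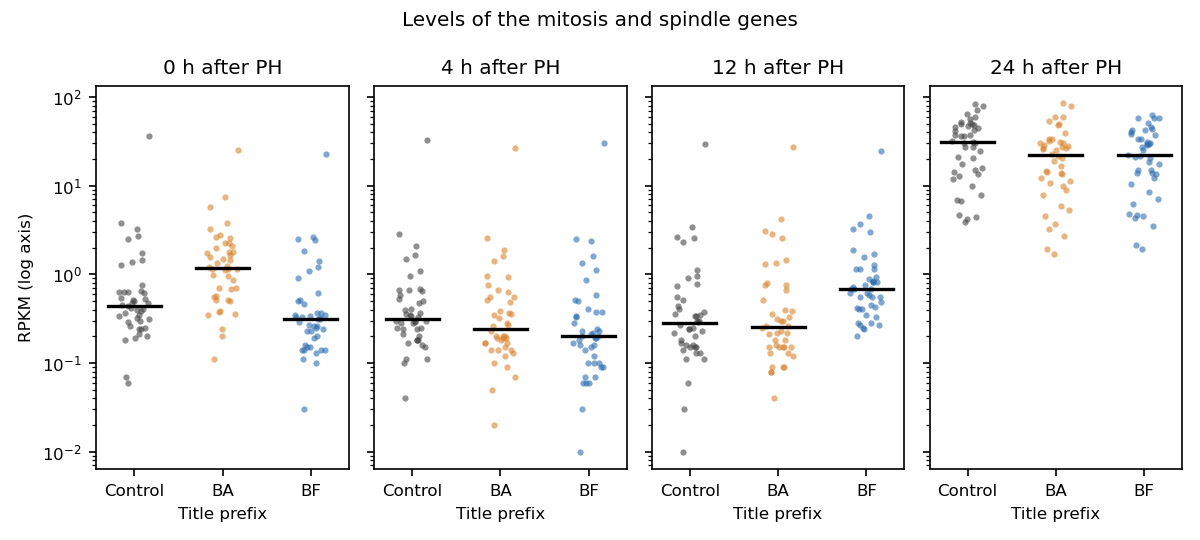
RPKM on a log axis of the 44 genes (1 point each) in the Control, BA and BF columns at 0, 4, 12 and 24 h after PH, with the median as a black bar. The median is 30.9, 22.2 and 22.0 RPKM at 24 h and at most 1.19 RPKM before, and BA is highest at 0 h and BF at 12 h.

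Before 24 h, the highest column for 35 of the 44 genes was BA at 0 h, a share not computed for all genes. At that time BA was above Control for 36 of 44 genes, where 35.1% of all genes were higher, with a median log2 difference of 0.53 beside -0.10 for all genes. CDCA3, PBK, NUF2 and HMMR passed 2-fold (1.87% of all genes). With 0.1 RPKM added in place of 1, 24 genes did, and the share of all genes was not computed there. In RPKM, PBK was at 2.24 in BA against 0.24 in Control and 0.20 in BF, and NUF2 at 2.24 against 0.32 and 0.26. The genes lower in BA than in Control were HMGB2, CDC25B, PTTG1, CDCA8, BUB3, MAD2L1, SPC25 and KIF23. The BF column at 0 h was lowest of the 3 for 37 of 44 genes, a share not computed for all genes. BF was below Control for 40 of 44 genes (73.9% of all genes), with a median of -0.14 beside -0.18 for all genes. It was below BA for 41 of 44 (61.9%), and 12 were 2-fold lower in BF than in BA (1.39%). Leukocyte markers summed to 40.8 RPKM in Control at 0 h, 32.3 in BA and 30.5 in BF. The part of other cells in the BA values was not tested.

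These BA values at 0 h were not seen at 4 and 12 h. Relative to 0 h, 15 genes were 2-fold lower in BA at 4 h (13.2% of all genes): TOP2A, SMC2, CDC20, CDCA3, AURKA, CDCA2, PBK, BUB1, TTK, NUF2, KIF22, TPX2, HMMR, KIF20B and PRC1. The BA column at 4 h is the one in which ALB took 30.9%, and with all columns set to a total without ALB the count was 15. It was 28 with 0.1 RPKM added in place of 1, and 23 at 1.5-fold, with no share of all genes computed for either. At 12 h 11 genes were 2-fold lower than at 0 h in BA (5.77%), all but UBE2C being among the 15 of 4 h. In Control and BF no gene of the list was 2-fold lower at 4 h (5.2% and 6.94% of all genes) or at 12 h (9.95% and 5.15%).

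At 12 h the low levels were ordered differently, with BF highest of the 3 columns for 41 of 44 genes. The share of all genes highest in BF was not computed. BF was above Control for 43 of 44 (40.4% of all genes), with a median of 0.33, and above BA for 41 of 44 (47.6%), with a median of 0.30. None passed 2-fold, where 1.84% and 1.16% of all genes did. In BF at 12 h 32 of the 44 genes were under 1 RPKM, where 2-fold higher cannot be reached with 1 RPKM added. Against their own 0 h column, 42 of 44 genes were higher in BF at 12 h (44.6% of all genes) with a median of 0.31, the exceptions being HMGB2 and KIF20A. With 0.1 RPKM added in place of 1, 17 of them were 2-fold higher, so the first time past 2-fold in BF depends on this setting. The share of all genes at that setting was not computed, so the 17 cannot be set beside it. Corresponding medians were -0.13 in Control and -0.70 in BA. For all genes they were -0.16 in Control, -0.13 in BA and -0.05 in BF, so the Control value was close to that of all genes. TPX2, which activates AURKA on the spindle, was at 1.89 RPKM in BF at 12 h, 0.74 in Control and 1.30 in BA. MAD2L1, the checkpoint protein that holds back CDC20, was at 3.74, 2.30 and 2.82 RPKM. This BF column is also the one with 122.3 RPKM of pancreatic acinar markers, of which CTRB1, PRSS1, CPB1 and CPA1 were higher there than in any other column and CELA1 was not; their part in the result was not tested.

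The MCM genes, which encode the replicative helicase and mark the start of DNA synthesis, were read beside the list. Of 4 MCM genes found, all 4 were 2-fold higher in BF at 12 h than at 0 h (2.46% of all genes), with a median of 1.62. None were in Control (3.96%), with a median of 0.42, or in BA (1.29%), with a median of 0.30, where 1 of the 4 was 2-fold lower. At 0 h MCM5 was highest in BA, with 11.8 RPKM where Control had 0.76 and BF 0.34. The other 3 MCM genes were lower in BA than in Control at 0 h, and the median of the 4 was -0.24.

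At 24 h the order of the 3 prefixes differed among the genes. For 24 of 44 genes it was Control, BF, BA from highest to lowest, for 7 it was BA, Control, BF, for 6 BF, Control, BA, for 6 Control, BA, BF, and for KIF20A BF, BA, Control. The upper 2 of the 3 values lay within 1.1-fold of each other for 22 genes, and the lower 2 for 1. With no spread over rats, these neighbours cannot be ordered.

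Relative to Control, BF had 5 genes that were 2-fold lower at 24 h (1.31% of all genes): CDCA8, PLK1, SPC25, KIF18A and KIF23. The same 5 were 2-fold lower in BF than in BA (0.969%). KIF18A, a kinesin that damps chromosome oscillation, was at 12.0 RPKM in Control, 12.2 in BA and 4.75 in BF. KIF23, the motor subunit of centralspindlin, was at 13.0, 14.1 and 4.34 RPKM. BA had no gene 2-fold higher or lower than Control (0.721% and 1.34%). In BA 36 of 44 were lower than in Control, which is near the share of all genes (77.1%). The median over the 44 mitosis genes was -0.54, beside -0.17 for all genes. Between BF and BA, 31 genes were higher in BF and 13 lower (62% and 37.6% of all genes).

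These directions at 24 h followed a list. The study compared its groups at 24 h with a set of 192 genes that it named DNA replication, and 14 of the 44 mitosis genes are in it: AURKB, CDCA8, PLK1, BUB1, BUB3, MAD2L1, NDC80, NUF2, SPC25, KIF18A, KIF2C, KIF20A, KIF23 and CDC20. In 13 of these 14 genes BF was below BA at 24 h, with a median log2 difference of -0.86 and a range from -1.50 to 0.07, KIF20A being the exception. In all 30 genes outside the set BF was above BA, with a median of 0.51 and a range from 0.11 to 0.79. The ranges of the 14 and the 30 genes did not overlap. For this set, the paper reports a significantly weaker rise in fistula rats than in controls or in rats given the infusion. It also reports PCR levels of PCNA, a gene of the set, that resembled its sequencing, and fewer proliferating hepatocytes in fistula rats. With BF read as the fistula, the genes in the set had that direction between BF and BA, and those outside it the opposite one. FOXM1 is outside the set, and the paper's introduction names it among decreases specific to bile acids, at 24 h. The FOXM1 level in BF (10.5 RPKM) lay below that in Control (14.4 RPKM) but above that in BA (7.93 RPKM). With BF read as the fistula, FOXM1 thus had the paper's direction against Control and the opposite one against BA. Against Control, the 14 genes in the set had a median of 0.01 in BA and -0.88 in BF, whereas the 30 outside it had -0.65 in BA, all 30 being lower, and -0.14 in BF. All genes had medians of -0.17 in BA and -0.11 in BF, and with each column rescaled on its median gene the 4 medians were 0.20 and -0.73 in the set and -0.46 and -0.0014 outside it. The split was noticed in these values and the set was used by the study on these samples, so neither is independent evidence of a direction. An exchange of the BA and BF values of the 14 genes would by arithmetic swap their medians against Control, so it is no test of the labels. Whether the values of the set's genes stand under the right prefix at 24 h in the deposited table was not tested, and all BA and BF values at 24 h given here carry that doubt. CYP7A1 and CYP8B1, which are outside the set, were highest in BF at 24 h as at 0 h. In Control, BA and BF at 24 h CYP7A1 was at 57.3, 68.8 and 334.4 RPKM, and CYP8B1 at 171, 190 and 1010 RPKM.

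**Figure D3:**
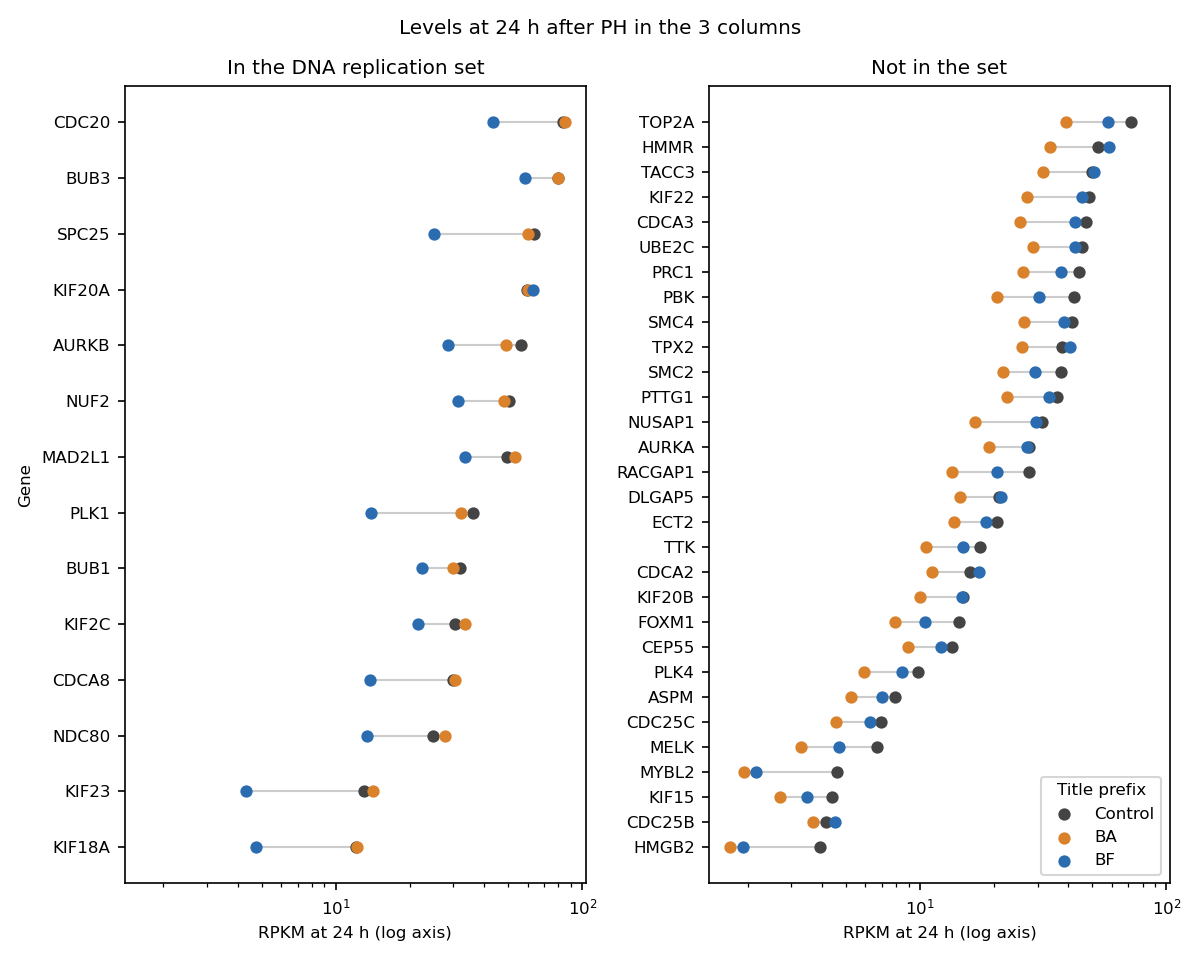
RPKM at 24 h after PH on a log axis of the 14 genes in the study's DNA replication set (left) and the 30 outside it (right), with 1 point for each of the Control, BA and BF columns and a grey line between lowest and highest. BF is the lowest point for 13 of the 14 genes on the left, and BA is the lowest for all 30 on the right.

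Some genes on either side of the split are known partners or relatives. They were picked after the values were seen, and since nearly every gene in the set was lowest in BF and every gene outside it lowest in BA, they show the split and add nothing to it. KIF23 (in the set) and RACGAP1 (outside it) form centralspindlin, and their 24 h values in Control, BA and BF were 13.0, 14.1 and 4.34 RPKM for KIF23 and 27.6, 13.5 and 20.6 RPKM for RACGAP1. AURKB in the set was at 56.6, 49.1 and 28.5 RPKM, and AURKA outside it at 27.6, 19.1 and 27.2 RPKM. PLK1 in the set was at 36.0, 32.2 and 13.9 RPKM, and PLK4, the centriole kinase outside it, at 9.82, 5.94 and 8.48 RPKM. AURKA and AURKB, like PLK1 and PLK4, are related kinases with separate roles. CDC20 (83.4, 84.8 and 43.6 RPKM) and UBE2C (45.6, 28.8 and 42.5 RPKM) act on the same complex, the first being lowest in BF and the second in BA. KIF20A, at 59.8, 60.1 and 63.3 RPKM, was the gene of the set that was not lowest in BF, and its relative KIF20B outside the set was at 15.0, 9.99 and 14.9 RPKM.

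Before 24 h the BF over BA ranges of the 2 subsets overlapped, and at 0 h their medians differed in the other direction. At 12 h the BF over BA median was 0.34 for the 14 genes in the set and 0.24 for the 30 outside it. At 0 h it was -0.14 in the set (range -1.36 to 0.11) and -0.87 outside it (range -1.43 to 0.11), ranges that overlap. The BA over Control median at 0 h was 0.11 in the set and 0.62 outside. BA was higher there for 9 of the 14 genes and 27 of the 30 (35.1% of all genes). Against 0 h, the 24 h medians in the set were 4.53 in Control, 4.37 in BA and 3.91 in BF, and outside it 3.73, 2.46 and 3.85. Promoters of the 14 windows in the set held a CHR in 64.3% and CCAAT in 50%, and those of the 24 outside it in 79.2% and 75%.

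Further mitotic genes, listed by role, were read in the same way, and 35 were found. At 24 h against 0 h 31 of the 35 were 2-fold higher in Control, 27 in BA and 30 in BF (8.29%, 3.83% and 9.27% of all genes). In the study's set are 16 of them, and 14 of these were lower in BF than in BA at 24 h (37.6% of all genes), with a median of -0.88. Of the 19 outside it, 18 were higher in BF (62% of all genes) and the other was equal, with a median of 0.38. At 0 h BA was above Control for 3 of the 16 and 16 of the 19 (35.1% of all genes). The BA over Control medians at 0 h were -0.12 and 0.51. All 13 kinetochore genes are in the set and 11 of the 12 spindle and cytokinesis genes are outside it, so role and set nearly coincide in these lists. Among the 10 cyclin B-CDK1 partners, the 2 in the set were lower in BF than in BA and the 8 outside it higher. INCENP, the spindle and cytokinesis gene in the set, was also lower in BF. The lists were chosen with earlier results of these data known, so they are no independent check of the split. The plot of BF against BA at 24 h shows the 4 subsets.

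**Figure D4:**
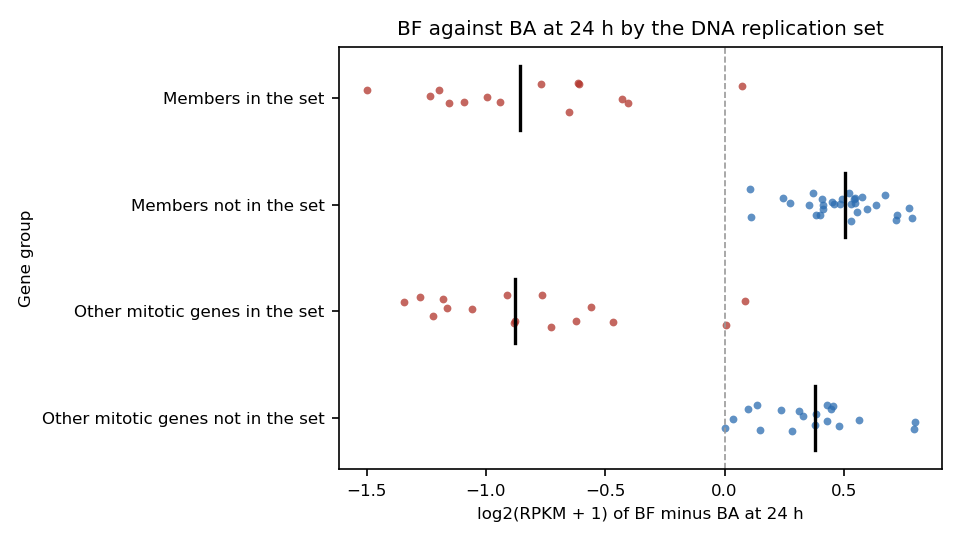
Difference BF minus BA at 24 h in log2(RPKM + 1), 1 point per gene with the median as a black bar, for the 44 genes and for the 35 other mitotic genes, each divided by the study's DNA replication set. Medians are -0.86 and 0.51 for the 44 genes and -0.88 and 0.38 for the others.

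Within the cyclin B-CDK1 partners (10 found), CDC2, the kinase that triggers mitosis, was at 135.7 RPKM in Control, 76.0 in BA and 112.9 in BF at 24 h. CCNB1, its cyclin, was at 95.3, 67.2 and 92.0 RPKM. CCNA2, the cyclin of S and G2 phase and the one of these 3 in the set, was at 46.2, 59.8 and 28.2 RPKM. FBXO5 (EMI1), an inhibitor of the anaphase-promoting complex that is also in the set, was at 15.5, 15.3 and 5.75 RPKM. Thus CDC2 and its B cyclin were lowest in BA, and CCNA2 and FBXO5 in BF, where both were 2-fold below BA.

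Other kinetochore genes (13 found) had a BF over BA median of -0.76. CENPT, a link between the centromere and the NDC80 complex, was at 25.4, 26.5 and 13.6 RPKM in Control, BA and BF. CENPM, a subunit of the constitutive centromere network, was at 22.8, 26.7 and 15.3 RPKM, and CENPA, the centromeric histone, at 20.2, 19.6 and 12.4 RPKM. CENPI, CENPQ, DSN1 and KNTC1 were 2-fold lower in BF than in both other columns, at 3.81 to 7.43 RPKM in BF against 8.77 to 20.4 RPKM in the others. All 7 are in the set.

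Among other spindle and cytokinesis genes (12 found), the BF over BA median was 0.35. STMN1 (stathmin), which destabilises microtubules, was at 67.9, 32.3 and 56.8 RPKM in Control, BA and BF, 2-fold lower in BA than in Control. NCAPH2, a condensin II subunit, was at 33.7, 22.8 and 24.4 RPKM, and KIFC1, a minus-end kinesin, at 25.2, 16.7 and 22.8 RPKM. None of these 3 is in the set.

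The remaining 105 expressed genes of the study's set had a BF over BA median of -0.49 at 24 h, and 103 were lower in BF, where all genes had a median of 0.06 and 37.6% were lower. The 4 MCM genes, all in the set, had a median of -1.68. Their medians against Control were -0.02 in BA and -1.62 in BF. At 0 h BA was above Control for 20 of the 105 genes (35.1% of all genes), with a median of -0.15.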

How the data were processed

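Each of the 12 liver columns holds RPKM values, which the authors made from their reads and deposited with 2 decimals in 1 table. Per the labels, a column combines 2 runs, of 1 rat and of combined RNA of 3 rats. The submitters' processing notes name CASAVA, Bowtie 0.12.2 and the builds mm8 and rn4, with no role for either build. Poly(A)-selected RNA was sequenced from Illumina TruSeq libraries. RPKM divides by transcript length and library total, so 1 very abundant gene lowers the rest of a column.

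Groups were taken from the sample titles. Genes were matched by symbol, 1 gene without a value and 2303 at 0 throughout were left out of the counts over all genes, and 8459 genes averaging 1 RPKM or more served as the background. Differences were log2(RPKM + 1), and 2-fold was the size at which a gene was counted. No test was run, because each prefix and time has 1 column. The members and lists were chosen with earlier results of these data known. Genes named with values were the 3 highest per role in Control at 24 h, those past 2-fold between prefixes at 24 h or against 0 h at 4 or 12 h, those of a mean under 1 RPKM, and partners of a split gene, TPX2 and MAD2L1 at 12 h and CCNF, which were chosen after their values were seen. The fold counts were checked on changes simulated in the Control 24 h values of genes averaging 1 RPKM or more. That check says little about levels under 1 RPKM, where most of the list lay before 24 h. Alternatives were pseudocounts of 0.1 and 0.5, a 1.5-fold size, no filter, members with a mean of at least 1 RPKM alone, and 2 rescalings of the columns. Python 3.11.15, numpy 2.4.6, pandas 2.3.3 and matplotlib 3.10.9 were used.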

Additional observations from a re-analysis of the deposited data

Results flagged for a closer look

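The median of the mitosis genes at 12 h against 0 h had a different sign in different prefixes. It was, on the log2 scale, -0.13 in Control and 0.31 in BF, a gap of -0.44. In BA it was -0.70, a gap of -1.01 to BF. All genes had medians of -0.16 in Control, -0.13 in BA and -0.05 in BF, and 62.8% of them were lower in Control at 12 h, so the Control value lay close to that of all genes. With 1 column per prefix and time the difference was not tested. The BF column at 12 h held 122.3 RPKM of pancreatic acinar markers. The BA column at 0 h was the highest before 24 h for 35 of the 44 genes, a share not computed for all genes. The part of either column in these gaps was not tested.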

How the results depend on the processing

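No paired analysis was possible because each group, a prefix at a time, has 1 column, and the groups share only replicate number 1; times are not replicates of a prefix. Of 402 alternative values over 93 results, 346 stayed (counts within 1.5 times, medians within 0.1 or 1.5 times), 56 moved and 0 reversed. All 24 h against 0 h and 24 h BF against BA medians were among those that stayed, under each alternative run. A pseudocount of 0.1 gave, at 12 h against 0 h, 5 genes 2-fold lower and a median of -0.46 in Control, 27 lower and a median of -1.56 in BA, and 17 higher and a median of 0.87 in BF, so that the first rise in BF was at 12 h for 17 genes and at 24 h for 27; at 24 h it put 4 genes 2-fold lower in BA than in Control. A pseudocount of 0.5 gave 21 lower in BA and a median of 0.51 in BF at 12 h, and 4 lower in BA than in Control at 24 h. At 1.5-fold, 24 genes were lower in BA and 7 higher in BF at 12 h against 0 h (first rise at 12 h for 7), and at 24 h 11 were lower in BF than in Control, 19 in BA than in Control, and between BF and BA 7 were higher and 11 lower. Rescaling on the median gene moved the 24 h medians against Control to -0.12 in BF and -0.35 in BA, to 0.20 for the set genes in BA and to -0.0014 for the genes outside the set in BF. At 4 h against 0 h, where no gene was 2-fold lower in Control or BF and 15 were in BA, a pseudocount of 0.1 gave 2, 4 and 28, and 1.5-fold gave 2, 1 and 23. A total without ALB put 2 genes 2-fold lower in BA than in Control. The comparisons at 4 h, those between prefixes at 0 and 12 h, and the split by the set were added after seeing the data, as was the rescaling without ALB. Levels under 1 RPKM, where most of the list lay before 24 h, carry an unknown counting error. Shares of all genes were not computed for the other pseudocounts, at 1.5-fold or after rescaling.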

Other observations

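CCNF (cyclin F), a substrate receptor of a ubiquitin ligase that limits centrosome duplication, was a mitotic gene with another course. In Control it was at 3.22, 8.60, 22.0 and 20.9 RPKM at 0, 4, 12 and 24 h. The BA values were 11.0, 36.2, 21.6 and 13.8 RPKM, and the BF values 3.64, 5.01, 19.3 and 17.0 RPKM. Its 24 h over 12 h log2 differences were -0.07 in Control, -0.62 in BA and -0.18 in BF. With no spread over rats, differences of this size cannot be ordered. By contrast, every one of the 44 mitosis and spindle genes was at least 2-fold higher at 24 h than at 12 h. The highest BA value of CCNF stood in the 4 h column, where ALB took 30.9%. CCNF was singled out after its values were seen.

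Among the 35 other mitotic genes, 4 were under 2-fold higher at 24 h than at 0 h in Control. MIS12 and MAD1L1, which anchor the kinetochore and the checkpoint, had 0 h levels of 13.4 and 11.3 RPKM, and reached 18.4 and 16.2 RPKM by 24 h. CCNB2 and CIT, a B cyclin and a kinase of cytokinesis, stayed under 1 RPKM in Control, at 0.70 and 0.39 RPKM at 24 h.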
